A study of Mus musculus with 109 samples.

Results

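The B48 bait is a single HindIII fragment in an intron of Morc1 on mouse chromosome 16, and its contacts were read by 4C-seq, which ligates crosslinked DNA ends and sequences everything joined to 1 chosen fragment, the bait. Libraries of this bait were chosen by their reads: of the 39 columns titled Ch16, Ch17 or 1.5hrs, the 7 with the highest percent of reads within 100 kb of the bait were taken, out of 109 libraries in the series. That percent was 33.1, 32.1, 22.4, 22.2, 18.7, 13.8 and 12.3 in the 7 libraries, which are called library 1 to library 7 in this order. The next column held 0.354%. The 7 were thus selected on the share near the bait, which is given as a description only. The same 7 columns came first with the share taken within 20 kb or within 1 Mb.

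All 109 libraries came from C127 cells, an established mouse mammary cell line, with no genetic change named in the labels. Cultures were blocked in mitosis with nocodazole and released into G1, taken later for G2, or starved of serum for G0, then fixed with formaldehyde. Only library 3 is titled for the B48 bait. The 7 titles name baits B30, B41, B46, B48, B50 and B76 and times between 30 min and 4 h after mitosis, so the time of each library is not known from its reads, and no time course was drawn. The libraries were treated as 7 samples of 1 bait whose differences may include time. The titles call the columns biological replicates, but since they do not match the bait read, they do not say which libraries of this bait came from separate cultures, and p-values measure the spread between these libraries. The 3 other chromosome 16 baits used for comparison, B46 in Phldb2, B41 in a gene desert 612978 bases from Lsamp and B30 4547 bases from Fam43a, were found by the same rule, with 7 libraries each.

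A chromosome is folded into domains, stretches of DNA whose parts meet one another more often than they meet their neighbours. Over longer distances, gene-rich, GC-rich segments tend to meet segments of their own kind, and gene-poor, AT-rich segments do likewise, a division known as A and B compartments. Contacts of a bait therefore fall with distance, step down at domain borders, and rise again at distant segments of matching kind. Morc1 encodes a MORC-family ATPase known for silencing transposons in the male germline.

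The primer that reads the bait lies at chr16:48602104-48602122 (mm9, plus strand), between the Morc1 exons that end at 48592728 and start at 48612402, with no Morc1 exon over it. It runs into the HindIII site at 48602119. The bait fragment is 560 bases long, from the site at 48601559, and holds 1 DpnII site. There were 11 protein-coding genes within 500 kb on either side, and 40.6% of the 500 kb centred on the bait was G or C. The primer, its surroundings and the far end of the bait fragment are printed here since later results refer to them, with capitals for HindIII bases.
B48 primer: ggctgtagcttagggAAGC
Bait HindIII site, chr16:48602059-48602158: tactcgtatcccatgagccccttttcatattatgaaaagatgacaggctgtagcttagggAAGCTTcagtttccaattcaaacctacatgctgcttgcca
Far end of the bait fragment, chr16:48601525-48601624: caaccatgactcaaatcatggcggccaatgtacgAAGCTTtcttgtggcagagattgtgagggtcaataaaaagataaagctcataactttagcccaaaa

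Total reads were 3024047, 2898355, 3183404, 1181384, 1138984, 191295 and 182669 in libraries 1 to 7. Libraries 6 and 7 were the shallowest and had the lowest share near the bait. The site at the far end of the bait fragment, which is read when the fragment closes on itself, held between 3.94% and 22.6% of reads. It lies within 50 kb of the bait, a stretch left out of the values that follow, except that RPM of single sites are scaled to all reads of a library. Because reads were amplified by PCR and carry no identifier of the original ligation, values are given for reads and also for captured sites, HindIII sites with at least 1 read. Libraries 1 and 3 captured 18257 sites on other chromosomes in common, 41.8% of the smaller set and 5.38 times the number that independent capture gives. Libraries 5 and 7 shared 5.29 times that number, and the other 19 pairs between 1.99 and 3.20 times. At B46 and B41 more pairs than at B48 shared over 4 times the number of independent capture, so results on other chromosomes are also given with recurrently captured sites left out.

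Within chromosome 16, the bait's contacts filled an asymmetric interval that reached 2.60 Mb towards the centromere and 0.575 Mb towards the telomere. The profile was cut into 100-kb bins, and reads per HindIII site were divided by each library's mean between 50 kb and 2.5 Mb. The bins nearest the bait were the highest and fell away on both sides. On the telomere side the level dropped within Myh15 and stayed low past Ift57, Cd47 and Bbx. On the centromere side it fell to a plateau across a gene-poor stretch, which held as far as Pvrl3 and the start of Cd96. From there it fell over the rest of Cd96 towards Plcxd2.

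**Figure D1:**
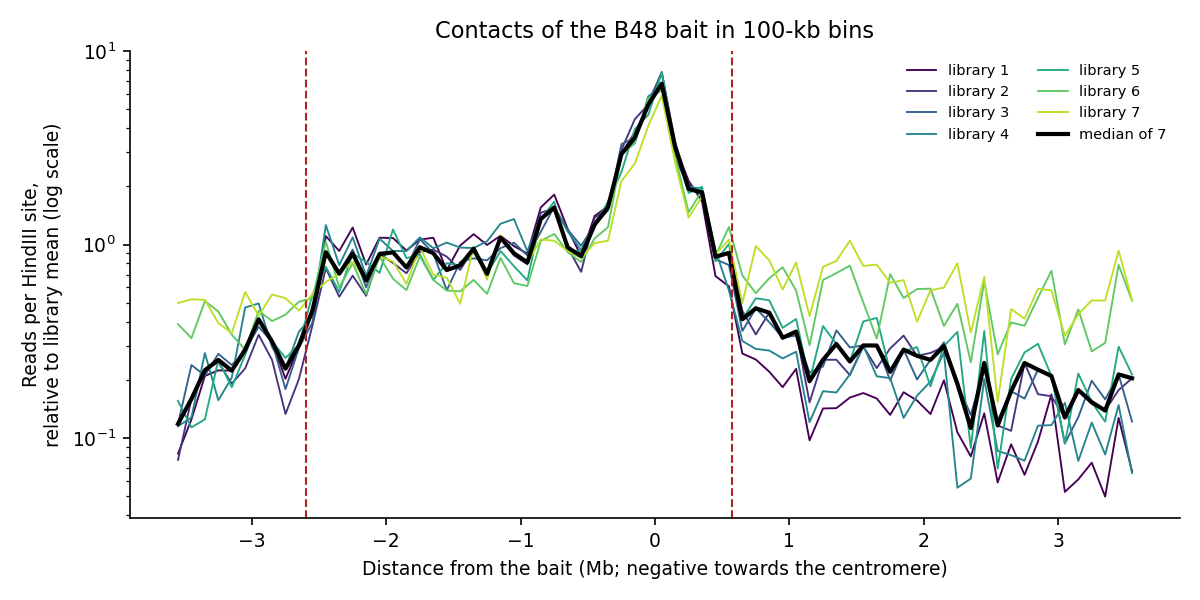
Reads per HindIII site in 100-kb bins (y axis, log scale, relative to each library's mean from 50 kb to 2.5 Mb) against distance from the B48 bait in Mb, for 7 libraries and their median. Dashed lines mark the largest step on each side, 2600 kb towards the centromere and 575 kb towards the telomere; past the telomere-side line libraries 6 and 7 are the highest.

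Steps in the plot of contacts by distance were measured as the level in the 200 kb on the bait's side over the level in the next 200 kb, every 25 kb; this measure was chosen after the profile was seen and carries no test. The largest telomere-side step lay at position 49177104, inside Myh15, a myosin heavy chain gene. It was 2.60-fold in the median library and between 1.88-fold and 3.40-fold in the 7. Taken library by library, the largest step within 2 Mb on this side fell at 49152104 or 49177104 in all 7 libraries. The largest centromere-side step lay at 46002104, inside Plcxd2, at 2.78-fold in the median library with a range of 1.22 to 3.40. Libraries 1, 2 and 4 had their largest step at this position and library 3 at 45977104. Library 5 had it farther out, at 45277104. Libraries 6 and 7 had it at 48302104, 300 kb from the bait, which is the nearest position searched.

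The interval between the steps in Plcxd2 and Myh15 spans 3.18 Mb and wholly contains 14 protein-coding genes. It holds 3.40% of the chromosome's HindIII sites outside 50 kb of the bait. Its share of chromosome 16 reads was 42.9, 29.7, 32.0, 36.1, 27.4, 17.9 and 17.6% in libraries 1 to 7. Library 1 was the highest, and libraries 6 and 7 were the lowest. The B46 bait lies just outside, 164 kb on the centromere side of the Plcxd2 step.

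Genes of the near neighbourhood were read in the 100-kb bin that holds their start. Of the 22 names listed for this neighbourhood, 17 are in the annotation used, counting C330027C09Rik, the symbol there for the gene of Cip2a, an inhibitor of protein phosphatase. Around the bait, the Morc1 start was at 3.57 times the library mean, with a range of 2.62 to 4.45. Dppa2 and Dppa4, SAP-domain genes known from pluripotent cells, lie on the centromere side of Morc1, 292 kb and 318 kb from the bait. The Dppa2 bin was at 2.93 (2.13 to 3.31) and the Dppa4 bin at 1.56 (1.05 to 1.67), so the level dropped between these neighbours.

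On the other side, Trat1, which encodes an adaptor of the T cell receptor, was at 3.19 (2.65 to 3.37). Retnla and Retnlb, genes of resistin-like secreted proteins, share a bin that was at 1.94 (1.38 to 2.14). Dzip3, a ubiquitin ligase gene, and C330027C09Rik share the next bin, at 1.86 (1.67 to 1.99). The bin with the Myh15 start was lower, at 0.865 (0.687 to 0.936), and the 7 libraries of the Dzip3 bin did not overlap with it.

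Beyond Myh15, Ift57, a gene of transport within cilia, was at 0.355 (0.228 to 0.808). Cd47, whose product is the ligand of the SIRPα receptor, was at 0.254 (0.142 to 0.767), Bbx, an HMG-box gene, at 0.287 (0.127 to 0.655), and Ccdc54 at 0.266 (0.156 to 0.589). In each of these 4 bins the upper end of the range came from library 6 or library 7. Pvrl3, a nectin adhesion gene 2.10 Mb away on the centromere side, was at 0.652 (0.544 to 0.814). The bin with the start of Cd96, an immune receptor gene 2.48 Mb away, was at 0.913 (0.641 to 1.26). Over the whole body of Cd96 the level was lower, at 0.519 (0.384 to 0.592). The Pvrl3 and Cd96 bins were thus at a higher median level than that of Cd47, although Cd47 is nearer to the bait at 1.25 Mb. Not every library had this order. In library 7 the Cd47 bin, at 0.767, was above both, and in library 6, at 0.656, it was above that of Pvrl3, at 0.555. Of the bins more than 200 kb away, the 5 with the highest medians were those of Dppa2, of Retnla and Retnlb, of Dzip3 with C330027C09Rik and of Dppa4, given above, and a bin from 47802104 that holds no gene, at 1.56 (1.05 to 1.81).

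Wider blocks gave the same order. Their edges were set with the profile known, with an edge at the Plcxd2 step, so they describe the profile and do not test it. The block from Dppa4 to Dzip3 was at 2.94 times the library mean (2.31 to 3.14). The gene-poor block on the centromere side, with Gm7275 as its only gene, was at 0.961 (0.761 to 1.11). The block of Pvrl3 and Cd96 was at 0.739 (0.636 to 0.940). Past the Plcxd2 step, a block of 10 genes that includes Cd200, Tagln3, Abhd10 and Phldb2 was at 0.290 (0.226 to 0.474). On the telomere side, the block of Gm5407 and Ift57 was at 0.352 (0.209 to 0.691) and that of Cd47 and Bbx at 0.279 (0.155 to 0.786). A gene-poor block with Ccdc54 and 5330426P16Rik was at 0.185 (0.0993 to 0.490), and that of Cblb, a ubiquitin ligase gene, and Alcam, an adhesion gene, at 0.192 (0.101 to 0.598).

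The gene-poor block towards the centromere stood above the block of Gm5407 and Ift57 in all 7 libraries. The ratio was 5.32, 2.75, 2.79, 4.26, 2.34, 1.25 and 1.22 in libraries 1 to 7. The block of Pvrl3 and Cd96 stood above the block past Plcxd2 by 3.24, 2.81, 2.67, 2.63, 2.55, 1.79 and 1.50 times, across an edge placed at the step itself. In both series of values libraries 6 and 7 showed the smallest contrast. The drop from the Dppa4 to Dzip3 block to the gene-poor block differed less between libraries, from 2.59 to 3.59 times. Depth, the share near the bait and the size of the steps moved together in these 2 libraries, and their parts in the result were not tested.

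Between 100 kb and 2 Mb, reads leaned towards the centromere. The telomere side held 32.0, 37.7, 37.6, 33.5, 40.2, 48.4 and 49.9% of reads in libraries 1 to 7, so the centromere side was higher in 7 of 7. The ratio of centromere-side to telomere-side reads was 1.65 in the median library and ranged from 1.00 to 2.12. Captured sites did not show the lean. They put 51.9% on the telomere side in the median library (48.3 to 53), where 653 of the HindIII sites lie against 619 on the centromere side, and in the median library 68.3% of the former and 70.3% of the latter were captured. The captured percent ranged from 61.6 to 81.5% on the telomere side and from 63.5 to 80.9% on the centromere side, and was higher on the telomere side in 5 of 7 libraries. With 1000 reads drawn per library, an alternative added after the data were seen, captured sites put 41.1% on the telomere side in the median library.

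The sides were compared with those of the other baits by exact two-sided permutation tests over libraries, 7 against 7, with 3432 arrangements. 9 tests were made, on 3 shares of the reads outside 100 kb against 3 baits, and adjusted together by Benjamini-Hochberg. The telomere-side share of B48 was 39.9% ± 6.90 (SD, n = 7). At B46 it was 63.5% ± 6.53 (SD, n = 7), a difference of -23.6 percentage points with an adjusted exact p of 0.0026, and at B30 74.0% ± 11.7 (SD, n = 7), a difference of -34.1 with an adjusted exact p of 0.0026. The raw exact p behind both is the smallest these arrangements allow, 0.00058. These tests treat libraries as unpaired. Paired by title bait, which left 6 pairs, both differences had an adjusted exact p of 0.070, and 6 pairs allow no exact p under 0.031. Against B41, at 46.4% ± 3.40 (SD, n = 7), the difference of -6.48 did not pass (adjusted exact p = 0.11). On captured sites the first 2 differences were 2.97 and 2.83 percentage points (adjusted exact p = 0.012). With most sites captured, this share follows the number of HindIII sites on each side, so it cannot compare contact levels. The telomere side holds 653 sites against 619 at B48, 632 against 676 at B46 and 563 against 597 at B30. With 1000 reads drawn in every library, also added after the data were seen, captured sites gave differences of -8.67 and -18.8 percentage points, the same direction as reads (adjusted exact p = 0.013 and 0.0052 over 3 tests). Every library of B48 was below every library of B46 and of B30 in reads. The library with the lowest near share lay close to an even split at each of the 4 baits, at 49.9% for B48, 50.3% for B46, 51.0% for B41 and 50.9% for B30.

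**Figure D2:**
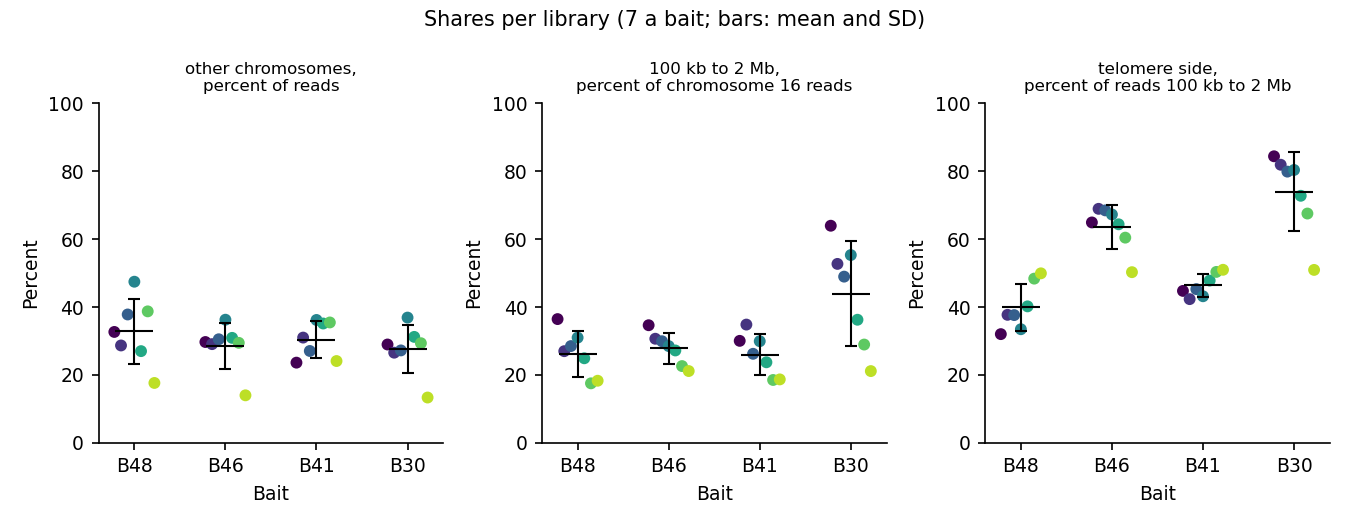
Percent of reads (y axis) on other chromosomes, within 100 kb to 2 Mb as a part of chromosome 16 reads, and on the telomere side of 100 kb to 2 Mb, for each of 7 libraries of 4 baits (points, in order of the near share) with mean and SD (bars). The B48 libraries sit between 32.0 and 49.9% on the telomere side, and those of B30 between 50.9 and 84.4%.

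Other chromosomes took a share of B48 reads like that of its neighbours. Of reads more than 100 kb away, 32.9% ± 9.62 (SD, n = 7) fell on other chromosomes, against 28.6% at B46, 30.4% at B41 and 27.7% at B30. The differences of 4.30, 2.49 and 5.21 percentage points did not pass (adjusted exact p = 0.54, 0.69 and 0.49, n = 7 each), which does not show the shares to be equal. The highest value was 47.5% in library 4 and the lowest 17.6% in library 7. The share of chromosome 16 reads that fell within 100 kb to 2 Mb was 26.2% ± 6.75 (SD, n = 7) at B48 and 43.9% ± 15.5 (SD, n = 7) at B30, and that difference of -17.7 did not pass (adjusted exact p = 0.061). Outside 50 kb, reads from 100 to 500 kb made up 8.55% in the median library (4.79 to 11.8) and those from 0.5 to 2 Mb 9.05% (5.78 to 11.9). From 2 to 10 Mb they made up 14.2% (11.2 to 24.1), and beyond 10 Mb on the same chromosome 33.2% (24.2 to 42.0). Chromosome 16 beyond 2 Mb took more reads than all other chromosomes in every library except library 4. On the scale of captured sites, between 32.4% and 65.4% of the 29627 HindIII sites there had a read, and between 0.686% and 7.77% of those on other chromosomes.

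Beyond 2 Mb, the bait met gene-poor, AT-rich segments of chromosome 16 more often than distance alone gives, and gene-rich segments less often. Captured sites were counted in 500-kb bins, with each library thinned to 9586 sites, and divided by the number expected from a smooth fall with distance. Values are log2 of this ratio and are descriptions, since bins are not replicates. Of 184 bins, 43 were above 0 in all 7 libraries and 32 in none. The 25 highest bins by median had a median GC of 38.4% and 1 gene, and the 25 lowest 45.2% and 6 genes, against 40.4% and 2 genes for all bins. The rank correlation across bins, which share the same libraries, was -0.39 with GC and -0.42 with gene number. It was -0.33, -0.44, -0.26, -0.46, -0.45, -0.11 and -0.06 with GC in libraries 1 to 7, so it was weak in libraries 6 and 7. On reads it was -0.54 for the median profile, and -0.32 and -0.29 in libraries 6 and 7.

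**Figure D3:**
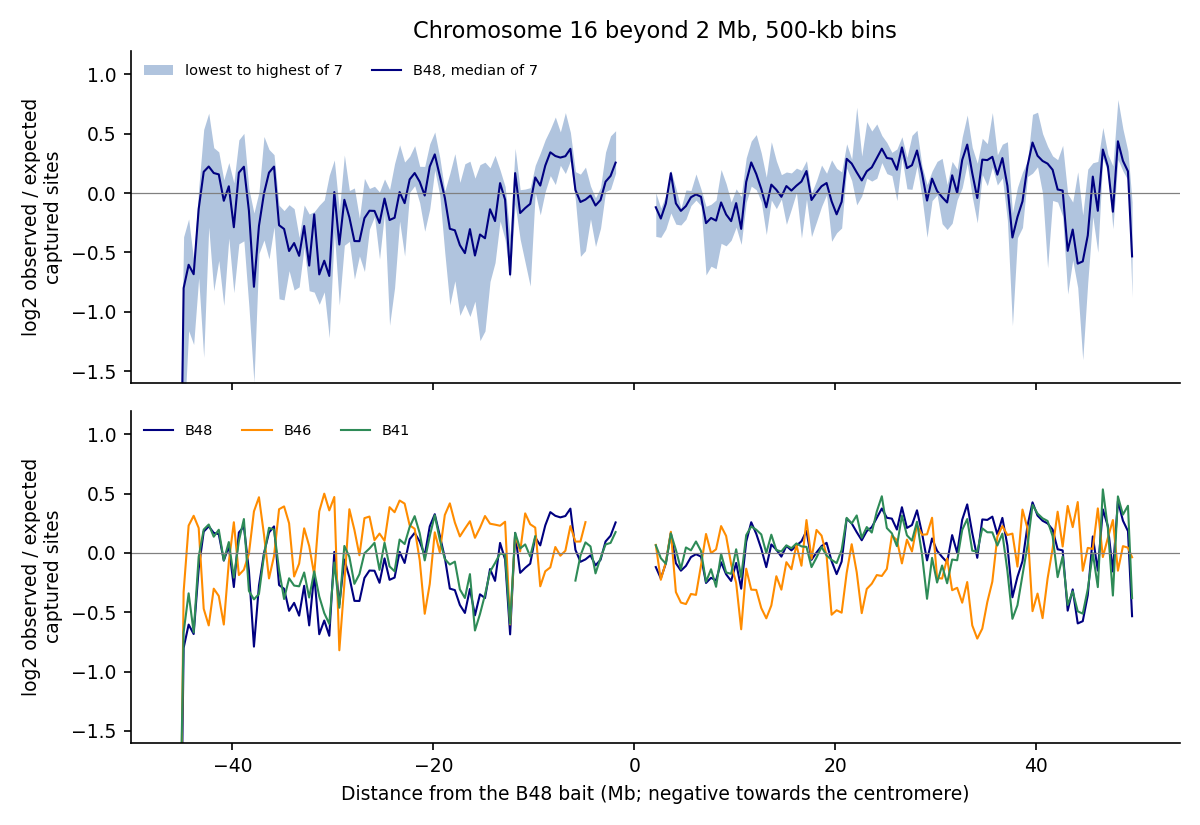
Log2 of observed over expected captured sites in 500-kb bins of chromosome 16 (y axis) against distance from the B48 bait in Mb. The upper panel gives the median and the range of 7 libraries, and the lower panel the medians of the B48, B46 and B41 baits: the B48 and B41 lines run together, and B46 runs apart; bins within 2 Mb of a line's own bait are left out and the lowest bin runs off the axis.

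The highest bins lay on both sides of the bait. The first by median was chr16:96500001-97000000, with Igsf5, Itgb2l and Pcp4, at 0.44. Next came 88000001-88500000 with Grik1, a kainate receptor gene, at 0.43, and the gene-free bins 81500001-82000000 at 0.41, 75000001-75500000 at 0.39 and 73000001-73500000 at 0.37. The bin 42000001-42500000 with Gap43, a gene of growing axons, was at 0.37, and 95000001-95500000 with the potassium channel genes Kcnj6 and Kcnj15 was at 0.37. The remaining bins of the highest 10 were 76500001-77000000 and 40000001-40500000, with no gene, at 0.36 and 0.34, and 28500001-29000000 with 1600021P15Rik at 0.33. Each of these 10 bins was above 0 in all 7 libraries. Not all were AT-rich. The first and the Kcnj6 bin had a GC of 44.9% and 45.5%, near the median of 45.2% of the 25 lowest bins. The others had between 36.3% and 42.4%. By reads, the highest was the part of the bin from 46500001 that lies beyond 2 Mb, next to Pvrl3, at 1.60, with 0.42 in library 7 and up to 2.22 elsewhere.

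The lowest bin was chr16:3000001-3500000, the first of the assembled chromosome, at -4.05, a bin with no gene that was at -4.02, -3.05 and -3.49 from B46, B41 and B30. Among the others of the lowest 5, 10500001-11000000 with Socs1, Clec16a and the protamine genes Prm1, Prm2 and Prm3 was at -0.79. The bin 36000001-36500000 with the stefin genes Stfa1, Stfa2 and Stfa3 was at -0.69, and 17000001-17500000 with Crkl and Pi4ka was at -0.68. The bins of Socs1, the stefins and Crkl were below 0 in all 7 libraries. From B46, the bins of Socs1 and Crkl were above expectation, at 0.35 each, and from B41 they were below it, at -0.39 and -0.37. The stefin bin was low from every bait, at -0.60, -0.60 and -0.76 from B46, B41 and B30, so its low value was not peculiar to B48.

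Lists of genes along the chromosome were read in the bin of each gene's start. The list of neuronal adhesion and other genes of gene-poor blocks, Lsamp, Gap43, Robo1, Robo2, Gbe1, Cadm2, Ncam2, Epha3, Epha6 and Nrip1, fell in 10 bins, all with a median above 0, and the list's median was 0.26. The highest were Gap43, Lsamp at 0.31, Robo1 at 0.30 and Robo2 at 0.29; the last 2 encode axon guidance receptors. The lowest were Cadm2 at 0.09 and Epha3 at 0.06, both with libraries on either side of 0. Of the genes of the proximal gene-rich block given here, Crkl, an adaptor gene, and Socs1, a gene of cytokine feedback, lay in the low bins above. Crebbp, a histone acetyltransferase gene, was at -0.60 (-1.16 to -0.22) and Abcc1, a transporter gene, at -0.49 (-0.65 to -0.10), both below 0 in all 7 libraries. Ciita was at -0.15 and the bin of Tbx1 and Hira at 0.01, both with libraries on either side of 0. Of the 9 bins of the distal list, 6 had a median above 0, and the list's median was 0.14; on reads 4 of the 9 were above 0, with a median of -0.18. App, the amyloid precursor gene, was at 0.30, and Dscam, an adhesion gene, at 0.27, while Runx1 was at -0.59 and Son, a splicing factor gene, at -0.49. Over all 184 bins 89 medians were above 0 on captured sites and 86 on reads, and the median bin was at -0.02 and -0.07.

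The profiles of the 7 libraries resembled one another to different degrees. Pearson's r between pairs of libraries over 184 bins averaged 0.77 and ranged from 0.42, between libraries 4 and 7, to 0.94, between libraries 2 and 5. Without the lowest bin, which all libraries share, the average was 0.62 and the lowest pair 0.18. On reads the average was 0.70 with that bin and 0.64 without it. Library 7 had the lowest average with the other 6 libraries, 0.65 on captured sites and 0.49 on reads.

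The profile of B48 was like that of B41, and unlike that of the nearer B46. Spearman's rho between the median profiles was 0.89 over 177 bins with B41, which lies 7.68 Mb away, and -0.32 over 178 bins with B46, which lies 2.76 Mb away. With B30 it was -0.29. Pearson's r was 0.94, 0.39 and 0.35 for B41, B46 and B30, and 0.89, -0.28 and -0.27 without the lowest bin, so the sign for B46 and B30 turned on that bin. The own profiles of B46 and B30 rose with GC (rho 0.60 and 0.63), whereas that of B41 fell with it (rho -0.32). In 1-Mb windows around the other baits, captured sites of B48 were above expectation at B41 by 0.34 on the log2 scale in the median library (0.18 to 0.67), in 7 of 7 libraries. At B46, in a window that crosses the Plcxd2 step, the value was 0.05 (0.01 to 0.31), also above 0 in 7 of 7. At B30 it was -0.24 (-0.63 to 0.26), above 0 in 3 libraries. Reads gave 0.79 at B41, 0.53 at B46 and -0.90 at B30. Read from the other end on captured sites, the B48 window was at 0.17 from B41, above 0 in 7 of 7 libraries. It was at 0.09 from B46, above 0 in 5 of 7, and at -0.11 from B30, above 0 in 1 of 7.

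The difference between the baits in Morc1 and Phldb2 was then tested bin by bin, since both lie at nearly the same distance from far segments. Reads per 500-kb bin more than 2 Mb from both baits were compared by edgeR's quasi-likelihood test with Benjamini-Hochberg adjustment, 7 libraries against 7. Of 178 bins, 124 passed an adjusted p of 0.05, or 69.7%; 59 were higher at B48 (33.1%) and 65 lower (36.5%). Bins that were higher had a median GC of 37.3% and 0 genes, and bins that were lower 44.3% and 5 genes. Of the 151 bins more than 10 Mb from B48, 107 passed, or 70.9%. Across all bins the log2 fold had a rank correlation of -0.70 with GC and of -0.64 with gene number.

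**Figure D4:**
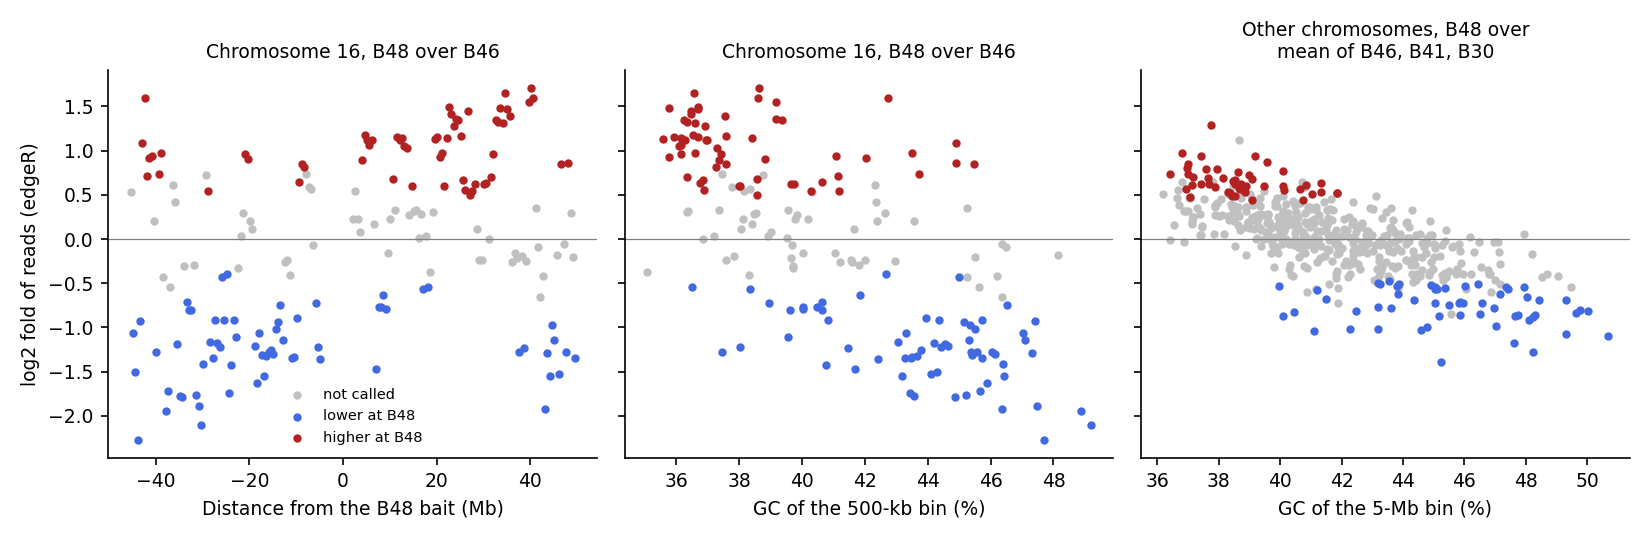
Log2 fold of reads at B48 over the other baits (y axis) for 500-kb bins of chromosome 16 by distance and by GC, and for 5-Mb bins of other chromosomes by GC; red and blue points passed an adjusted p of 0.05 (edgeR). In both comparisons called bins above 0 have the lower GC (medians of 37.3 and 38.5%) and called bins below 0 the higher (44.3 and 45.7%).

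The largest rise was chr16:88500001-89000000, which holds 19 genes from Cldn17, a claudin gene, onwards. It took 6928 CPM, counts scaled to the library's TMM-normalised total over tested bins, in the median B48 library, with a range of 5099 to 10266, and 1987 at B46 (1924 to 2736), without overlap. The log2 fold was 1.71 with a standard error of 0.18 and an adjusted p of 3.3e-06 (edgeR). The neighbouring bins from 88000001, with Grik1, and from 89000001, with 14 genes up to Krtap8-1, a keratin-associated protein gene, followed at 1.55 and 1.60. The gene-free bins from 83000001 and 6000001 were at 1.66 and 1.59. All but the last had no overlap between the baits. Such separation was found in 26 of the 59 higher bins and in 49 of all 178.

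The largest fall was chr16:4500001-5000000, with 17 genes from Srl onwards, at 1292 CPM in the median B48 library (581 to 1786) and 6096 at B46 (969 to 9646). Its log2 fold was -2.28 with a standard error of 0.41 and an adjusted p of 0.00013 (edgeR), and the ranges overlapped. The bin of Socs1 fell by 1.95, that of Ifngr2, Son and Atp5o by 1.92, and that from 17500001, with Lztr1 and Vpreb2, by 1.89 on the log2 scale. The bins of Son and Lztr1 did not overlap between baits and were among 23 such bins of the 65 lower ones.

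Over the gene lists, 6 of the 10 bins of the gene-poor block list were higher at B48 and 0 lower, against 33.1% and 36.5% of all bins, with a median log2 fold of 0.59. Robo1, Robo2, Gbe1, Ncam2, Epha6 and Nrip1, a nuclear receptor corepressor gene, rose, and Lsamp, Gap43, Cadm2 and Epha3 did not pass. In the proximal block, the bin of Tbx1 and Hira fell by 1.41, that of Crebbp by 1.50, that of Crkl by 1.76 and that of Abcc1 by 1.79 on the log2 scale, each past an adjusted p of 0.05 (edgeR), while Ciita, at -0.43, did not pass. Of the 9 bins of the distal list 3 were lower, close to the 36.5% of all bins, and 0 higher, those of Son, Runx1, a blood transcription factor gene, and Dyrk1a, a kinase gene, with a median of -0.18. The median over all bins was -0.03.

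Contacts with other chromosomes were spread thinly and differed between chromosomes much as those of the other baits did. Captured sites per HindIII site, on the log2 scale against the mean of other chromosomes, were highest on chromosome 19 at 0.67 (0.50 to 0.81), 15 at 0.48 (0.43 to 0.58), 17 at 0.45 (0.37 to 0.60) and 10 at 0.39 (0.35 to 0.44). They were lowest on X at -0.82, 14 at -0.65 and 12 at -0.49. The sign held in all 7 libraries for each of these 7 chromosomes. The other baits gave 0.81, 0.71 and 0.83 on chromosome 19 and -1.17, -0.95 and -1.11 on X (B46, B41 and B30), so these departures were not peculiar to B48. Chromosome copy number in C127 cells was not tested.

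In 5-Mb bins, the reads of B48 were tested against the mean of the 3 other chromosome 16 baits in 1 edgeR fit over 28 libraries. Of 515 bins, 106 passed an adjusted p of 0.05, or 20.6%, with 48 higher (9.32%) and 58 lower (11.3%). With sites captured in 5 or more libraries of any of the 4 baits left out, 53 of 515 passed, 22 higher and 31 lower, and 51 of these were among the 106. Higher bins had a median GC of 38.5% and 13 genes, and lower bins 45.7% and 71.5 genes. The rank correlation of the log2 fold with GC was -0.73 across bins. The B48 profile itself, the median of captured sites over 514 bins, had a rank correlation of 0.23 with GC, positive in all 7 libraries (0.09 to 0.35), against 0.68, 0.45 and 0.61 at B46, B41 and B30. Its Pearson's r with those profiles was 0.85, 0.93 and 0.86, so the folds are differences between correlated profiles. Scaling by total counts moved the split to 67 higher and 44 lower.

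The largest rise was chr14:85000001-90000000, a bin of 4 genes with the protocadherin gene Pcdh20, at 1300 CPM in the median B48 library (899 to 3114) and 550 at the other baits (267 to 1043). Its log2 fold was 1.29 with a standard error of 0.25 and an adjusted p of 0.00025 (edgeR). It was followed by chr1:110000001-115000000 with the cadherin gene Cdh7 at 0.97, bins of chromosome 12 from 90000001 and 60000001 at 0.94 each, and chr2:105000001-110000000 at 0.87. The largest fall was the bin of chromosome 12 from 85000001, with 93 genes, at -1.39 (standard error 0.30, adjusted p = 0.0020, edgeR), where the other baits ranged from 42.5 to 13908 CPM. The gene-dense bins chr4:130000001-135000000 with 95 genes, chr11:120000001-121843856 with 65 genes, chr11:115000001-120000000 and chr15:75000001-80000000 with 151 genes fell by 1.28, 1.17, 1.10 and 1.08 on the log2 scale.

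A larger part of single sites recurred on chromosome 16 than elsewhere, and a larger part was captured there in each library. Against the number that independent capture gives, the order was the reverse. Pairs of B48 libraries shared 1.32 to 1.68 times that number on chromosome 16 beyond 2 Mb, and 1.99 to 5.38 times on other chromosomes. Of the 29627 sites beyond 2 Mb, 1907 were captured in all 7 libraries. The 10 with the most reads all lay between 46152758 and 46553417, beside or in Pvrl3 or near Gm4737, and thus inside the Plcxd2 step. The first, at 46553417, had 315 RPM, reads scaled to the library's total, in the median library (157 to 432). On other chromosomes 75 of 792390 sites were captured in all 7, against 654624 in none and 106938 in 1.

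The 10 of these with the most reads were chr12:113255351 in Tdrd9, a germline helicase gene, chr10:74501972 in Rab36, chr3:89356908 in Kcnn3, chr2:105178803 in 0610012H03Rik, chr11:3056799 in Sfi1, chr8:63923938, chr17:28015185 in Uhrf1bp1, chr17:69159617, chr2:9182283 and chr14:16281151. The first held 142 RPM in the median library (29.6 to 286) and the last 52.5 (9.32 to 71.2). Of the 75 sites, 34 were captured by none of the 21 libraries of the other baits, and 5, the site in Sfi1 among them, in at least 6 libraries of another bait. The 34 do not set these sites apart. Those 21 libraries also missed 409371 of the 654624 sites captured in 0 B48 libraries and 42306 of the 106938 captured in 1. At least 6 libraries of another bait captured 0.212% and 0.251% of these 2 groups. The 75 sites held between 0.303% and 1.95% of reads on other chromosomes.

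Some of these recurrent sites lay near the last bases of the bait's primer, 15 of the 75 and 2 of the 10 named, those at chr8:63923938 and chr17:69159617. The last 10 bases of the primer, TTAGGGAAGC, were searched on both strands within 400 bases of every site; its last 4 bases are also the start of the HindIII site. They were found beside 0.247% of all sites on other chromosomes. The share was 0.226% among sites captured in 0 libraries, 0.280% in 1, 0.348% in 2, 0.929% in 3, 3.38% in 4, 5.07% in 5, 9.18% in 6 and 20% in 7, which is 15 of 75. Of the sites on other chromosomes that all 7 libraries captured at B46, at B41 or at B30, the same 10 bases were beside 0 of 209, 1 of 834 and 0 of 15. On chromosome 16 beyond 2 Mb the share was 0.367% among sites captured in 7 libraries and 0.294% among all sites.

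**Figure D5:**
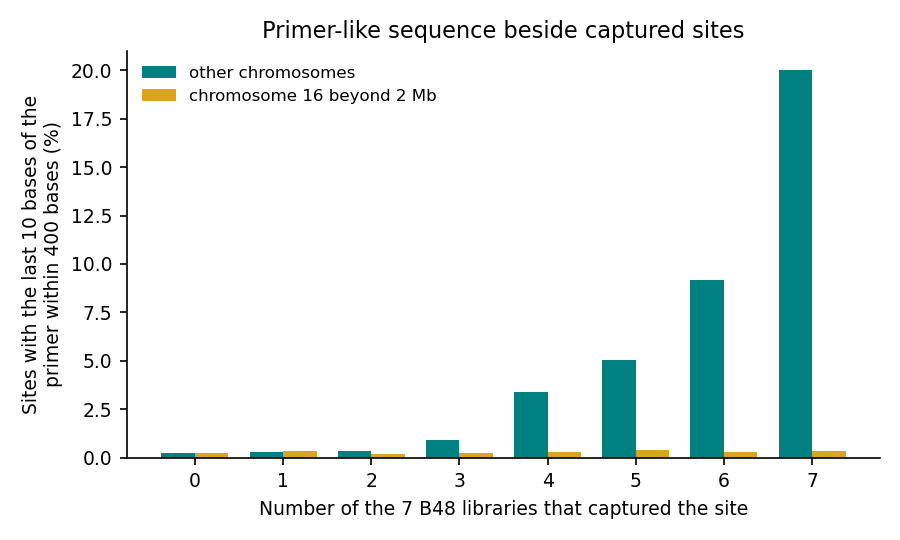
Percent of HindIII sites with the last 10 bases of the primer within 400 bases (y axis, from 0) by the number of the 7 B48 libraries that captured the site. On other chromosomes the share climbs from 0.226% to 20%, and on chromosome 16 beyond 2 Mb it stays between 0.210% and 0.402%.

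5 of these sites are printed with 15 bases on each side, capitals marking the HindIII site, to set beside the primer above. The first shares a run of 18 bases with the bait fragment, which starts within the primer and runs to the end of the HindIII site. The others share 13 bases across the site on 1 strand or the other.
chr17:69159617-69159622: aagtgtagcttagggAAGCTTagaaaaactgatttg
chr17:25216080-25216085: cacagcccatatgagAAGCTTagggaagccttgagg
chr8:84170610-84170615: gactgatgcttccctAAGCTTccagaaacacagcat
chr5:142002671-142002676: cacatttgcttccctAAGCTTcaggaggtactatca
chr1:63249600-63249605: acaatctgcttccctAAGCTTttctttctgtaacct

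Runs shared with the bait fragment as a whole were also longer at recurrent sites. Within 400 bases, 21 of the 75 sites (28%) shared a run of at least 13 bases with the fragment, against 2.7% of 1000 sites captured in 1 library and 2.3% of 1000 captured in none. Of the 21 runs, 10 overlapped the primer and 11 lay elsewhere in the fragment. Runs of at least 18 bases were found at 6 of the 75, against 0.2% and 0.1%. The longest, 33 bases, is beside chr15:38995906-38995911, which lies 17504 bases from Dcaf13, and a run of 30 bases is beside chr8:26446542-26446547.
chr15:38995906-38995911, shared run: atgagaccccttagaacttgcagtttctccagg
chr8:26446542-26446547, shared run: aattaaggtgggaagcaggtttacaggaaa
The first run starts at base 214 of the bait fragment, past the DpnII site at base 181. A match is a description of these letters, and its part in the reads at these sites was not tested.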

How the data were processed

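The authors deposited raw read counts per HindIII site for 109 libraries; the submitters' processing notes name BWA 0.5.9 and mm9; how reads were filtered is not given in the sources used here. All 30962 positions of chromosome 16 equal the HindIII sites of the supplied mm9 sequence. Baits were placed by matching the primers in the labels, and protein-coding genes were taken from GENCODE of the same build. Reads within 50 kb of the bait were left out, or 100 kb for tests of shares. Expected captured sites were smoothed over log distance by lowess with a span of 0.5 and a pseudocount of 0.5, as means of 10 thinning draws. Bins needed 20 HindIII sites. Bins were tested on counts with edgeR 4.0.16 (TMM, filterByExpr, robust glmQLFit; R 4.3.3), the standard error taken from the quasi-likelihood F; DESeq2 1.42.0 was an alternative. CPM were taken over tested bins only. Both steps were tested on simulated data. Total reads per library ranged from 182669 to 3183404, and counting intervals were not given, since PCR reads are not independent molecules.

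Regions named were: 100-kb bins with a listed gene and the 5 highest beyond 200 kb; the 10 highest and 5 lowest 500-kb bins, 1 Mb apart; the 10 most recurrent sites on chromosome 16 and on other chromosomes; and the 5 largest rises and falls of each edgeR comparison. The sites whose sequence is printed were chosen after their matches were seen. The members, lists and rules were chosen with earlier results of these data known. Some of the regions and genes that these rules name, and the counts over the proximal list, are not reported here.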

Additional observations from a re-analysis of the deposited data

Results flagged for a closer look

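Of 56 sets of 7 library values checked for a single library far from the rest, 1 stood out, fewer than the 1 in 20 that chance gives. Library 7 had 24.1% of its reads between 2 and 10 Mb from the bait, and the other 6 libraries between 11.2 and 16.6%. The telomere-side share of reads differed between baits by unpaired exact permutation tests, by -23.6 percentage points between B48 and B46 and by -34.1 between B48 and B30.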

How the results depend on the processing

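The 7 libraries were the same when chosen within 20 kb or 1 Mb. On captured sites the share on other chromosomes was 55.5% in place of 31.5% of reads in the median library. The telomere-side share, 51.9% of captured sites, was 37.7% on reads, 54.5% within 1 Mb and 41.1% with equal reads drawn. On captured sites the telomere-side differences were 2.97 against B46 and 2.83 against B30. These follow the number of HindIII sites on each side of the baits. In 1-Mb bins 68 of 90 chromosome 16 bins passed, against 124 of 178. On other chromosomes 202 bins passed on captured sites and 53 with recurrent sites left out, against 106. Without 1 library of B48 between 66.3% and 73.6% of the 178 bins passed, and the count on other chromosomes ranged from 80 to 103, and with libraries 1 and 3, and 5 and 7, summed the counts were 128 and 79. Without libraries 6 and 7 they were 131 and 76. The cause of these shifts was not tested. Of 310 alternative values of the named edgeR bins, 309 kept their direction and side of the threshold. The titles do not match the bait read, but 6 title baits recur at all 4 baits. Same-titled libraries of B48 and B46 deviated together by r from 0.04 to 0.21 over bins, above 0.1 for 5 of 6, and 1 of 6 correlated best with its own title. These bin deviations did not show the titles to pair libraries, but depth and shares did go with the title. Libraries titled B30 or Ch8 had 182669 to 278667 reads at all 4 baits. The library titled B46 had the highest share on other chromosomes at each bait, 47.5, 36.3, 36.2 and 36.9% at B48, B46, B41 and B30. With title bait as a replicate block, added after the data were seen, 140 and 148 bins passed, and 132 and 146 in the same libraries without it. On shares, 0 of 9 differences passed against 2, since 6 pairs allow no exact p under 0.031; B48 was lower in 6 of 6 title baits on the telomere side against each bait and, against B30, from 100 kb to 2 Mb (adjusted exact p = 0.070 for each). Depth limits sites on other chromosomes, of which at most 7.77% were captured in 1 library.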
